A study of Mus musculus with 26 samples.

Results

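The day 5 response to alectinib was taken from 6 of the 26 RNA sequencing libraries of this study, namely the libraries labelled day 5 of the murine EML4-ALK lung cancer lines EA1, EA2 and EA3, each grown with 100 nM alectinib or with its solvent DMSO. The members were chosen by label alone, with 1 library per line and treatment, so that 3 alectinib libraries were set against 3 DMSO libraries and each alectinib library was paired with the DMSO library of its own line. All 3 lines come from lung tumors that an adenovirus with Cas9 and guide RNAs against Eml4 and Alk had induced in C57BL/6 mice, and every library therefore comes from cells labelled with the EML4-ALK genotype. EA1 came from a p53 wild-type mouse and EA2 and EA3 from p53 null mice. EA2 was made in another laboratory. No culture was repeated within a line and day, so that the error below is the spread of the response between 3 lines and not between cultures of 1 line.

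The EML4-ALK fusion keeps the ALK kinase active and drives the RAS, RAF, MEK and ERK cascade, which in turn maintains short-lived messages for ETS factors, AP-1 subunits and the cascade's own inhibitors. Alectinib occupies the kinase and shuts this output down. Cells that survive the first days of such a drug without a resistance mutation are often called drug-tolerant or residual cells, and in several tumor types they take on features of contractile or mesenchymal cells. In bulk RNA, loss of some cells and a change of RNA within the remaining cells cannot be told apart.

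The 6 libraries held between 6606091 and 11732401 counts. Levels are given as CPM, the share of a library's counts scaled to a fixed total, after TMM scaling, always in the order EA1, EA2 and EA3, and differences as the log2 fold change of alectinib against DMSO with its standard error (SE). Adjusted p-values are those of edgeR's quasi-likelihood test with the line as a block, after Benjamini-Hochberg correction over all genes tested, with a threshold of 0.05. Each day 5 library correlated best with the earlier libraries of its own line. Mitochondrial transcripts took 1.37%, 2.02% and 2.03% of counts with DMSO and 2.55%, 1.45% and 3.85% with alectinib, higher in EA1 and EA3 and lower in EA2, and their part in the results was not tested. Trp53 was at 93.0, 76.4 and 3.78 CPM with DMSO and 92.6, 40.6 and 4.65 CPM with alectinib, so that EA2, although derived from a p53 null mouse, held Trp53 reads with both treatments. The fusion partners were read in all 6 libraries. Alk was at 59.2, 131 and 69.1 CPM with DMSO and 40.5, 94.9 and 50.9 CPM with alectinib (log2 fold change -0.48, SE 0.18, adjusted p = 0.184), and Eml4 at 39.0, 123 and 34.4 CPM with DMSO and 23.2, 108 and 34.5 CPM with alectinib (log2 fold change -0.31, SE 0.23, adjusted p = 0.456). Both ranges overlapped between treatments and neither gene passed the threshold.

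On day 5, 161 of 12533 genes tested were higher with alectinib (1.28%) and 184 were lower (1.47%). The changes were large, with a median log2 fold change of 2.67 among the genes that rose and -2.35 among those that fell, and the smallest in size was 1.15. The log2 ratio had 1 sign in all 3 lines for 341 of the 345 genes, which the call itself nearly requires, since its error is the spread between the same lines. The 4 exceptions, Cxcl12, Gsta3, Mmp2 and Hgfac, had no reads in EA2 with either treatment. Over all 12533 genes tested, 48.6% had 1 sign in all 3 lines. Across all genes tested, the log2 ratios of 2 lines correlated at r = 0.312 for EA1 and EA2, 0.633 for EA1 and EA3 and 0.513 for EA2 and EA3, which is a description across genes that are not independent. An unadjusted p under 0.05 was reached by 3049 genes, 1502 higher and 1547 lower. The number of calls depended on the line left out, since without EA1 77 genes were higher and 120 lower, without EA2 428 and 604, and without EA3 none were called in either direction. With no block for the line, edgeR called 0 and 0 genes, and DESeq2 with the block called 825 and 1002.

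**Figure D1:**
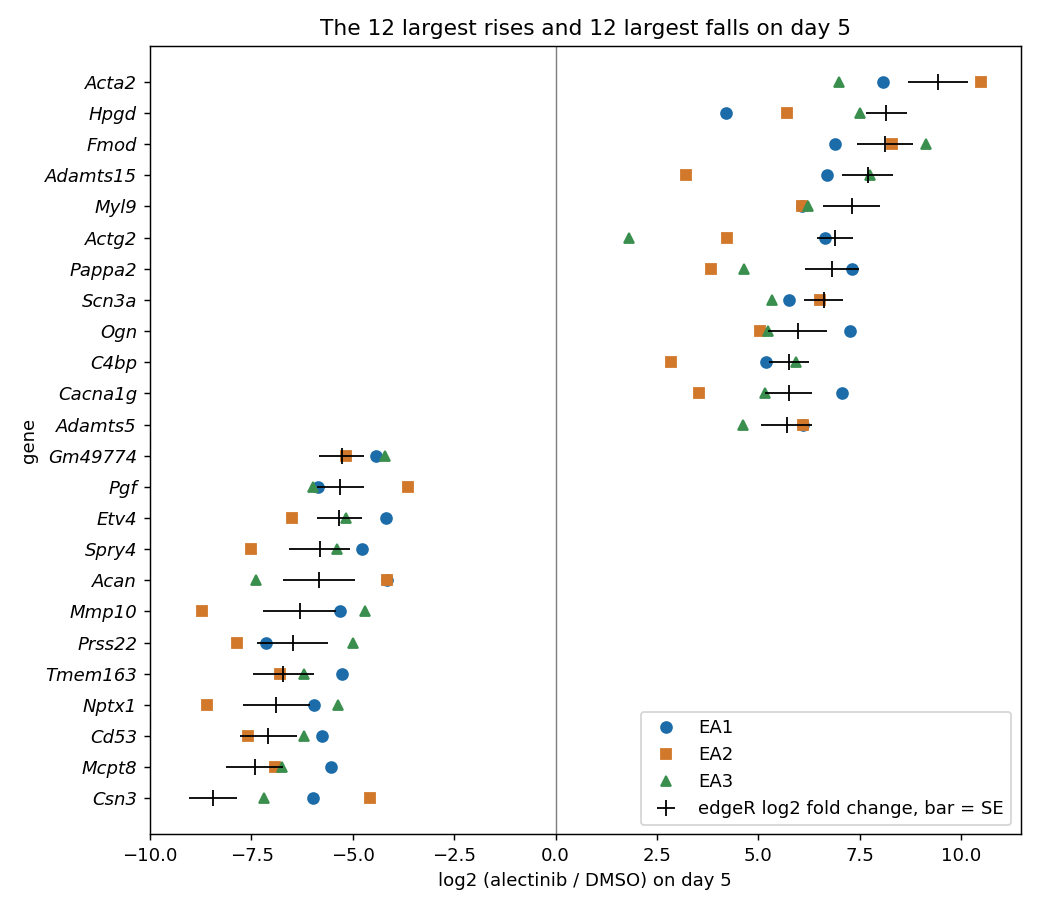
The 12 largest rises and 12 largest falls on day 5 among genes past the threshold with 1 sign in all lines, among genes whose log2 CPM averaged 3 or more. The x axis is the log2 ratio of alectinib to DMSO, points are the 3 lines (log2 CPM with a prior count of 2, which pulls ratios of low counts toward 0) and black bars are the edgeR estimate with its SE. Acta2 has the highest estimate, 9.44, and Csn3 the lowest, -8.44.

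Of 26 ERK pathway targets tested, 8 fell and 0 rose, and their median log2 fold change was -2.41, where the median of all genes tested was 0.02. Before adjustment, at p under 0.05, 1 were higher and 19 lower, and DESeq2 called 1 and 21. The list medians of the 3 lines were -2.08, -2.84 and -2.49. Dual-specificity phosphatases strip the activating phosphates from ERK and are themselves induced by it. Dusp4 was at 498, 156 and 429 CPM with DMSO and 35.5, 10.00 and 32.0 CPM with alectinib (log2 fold change -3.84, SE 0.21, adjusted p = 0.0207), and Dusp5 at 79.6, 48.4 and 137 CPM with DMSO and 3.75, 3.40 and 6.76 CPM with alectinib (log2 fold change -4.19, SE 0.24, adjusted p = 0.0207). For both genes the highest alectinib library lay below the lowest DMSO library. Dusp9, named after its values were seen, was at 4.10, 18.8 and 40.1 CPM with DMSO and 0.334, 2.34 and 6.45 CPM with alectinib (log2 fold change -2.99, SE 0.35, adjusted p = 0.0301), and here the ranges overlapped because EA1 was low with both treatments. Sprouty proteins block signalling from receptors to RAS. Spry4 was at 62.0, 38.4 and 67.4 CPM with DMSO and 2.08, 0 and 1.37 CPM with alectinib (log2 fold change -5.82, SE 0.75, adjusted p = 0.0381), and Spry2 at 95.1, 55.8 and 66.9 CPM with DMSO and 18.4, 6.28 and 9.30 CPM with alectinib (log2 fold change -2.78, SE 0.25, adjusted p = 0.0241). Neither Sprouty gene overlapped between treatments. Dusp6, a phosphatase specific for ERK, was at 148, 325 and 265 CPM with DMSO and 29.2, 6.28 and 21.1 CPM with alectinib. Its groups did not overlap, but it did not pass the threshold (log2 fold change -3.83, SE 0.72, adjusted p = 0.0669).

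Among the transcription factors of this pathway, the ETS factor Etv4 was at 71.0, 118 and 73.2 CPM with DMSO and 3.75, 1.06 and 1.80 CPM with alectinib (log2 fold change -5.34, SE 0.56, adjusted p = 0.0286). Its relative Etv5 was at 54.1, 127 and 61.8 CPM with DMSO and 4.59, 0.638 and 5.39 CPM with alectinib, without overlap but with a log2 fold change of -4.53 that did not pass the threshold (SE 0.89, adjusted p = 0.0701). EA2 had the lowest level of both factors with alectinib and the highest with DMSO. Fosl1, Fos and Jun encode subunits of AP-1. Fosl1 was at 35.5, 39.2 and 51.2 CPM with DMSO and 5.84, 2.98 and 4.02 CPM with alectinib (log2 fold change -3.31, SE 0.34, adjusted p = 0.0253). Of its annotated exon bases, 57.2% lie opposite exons of Ccdc85b, and the strand setting of the count is not given in the sources used here, so that reads of the pair may be mixed. The same limit holds for Dusp5 (22.1% of exon bases), Gadd45a (19.1%), Abcb1a (10.1%), Tapbp (24.9%), Fdft1 (18.3%) and Smtn (16.3%). Fos was at 34.6, 2.43 and 88.2 CPM with DMSO and 2.84, 0.213 and 4.54 CPM with alectinib (log2 fold change -3.87, SE 0.31, adjusted p = 0.0241), with an overlap that came from the low DMSO level in EA2. Jun, named after its values were seen, was at 134, 110.1 and 277 CPM with DMSO and 39.1, 52.2 and 71.5 CPM with alectinib (log2 fold change -1.60, SE 0.25, adjusted p = 0.0456). Ier3, a survival gene of the immediate early class, was at 723, 262 and 2277 CPM with DMSO and 139, 59.1 and 249 CPM with alectinib (log2 fold change -2.57, SE 0.32, adjusted p = 0.0311). Egr1, the classic immediate early zinc finger gene, had a log2 fold change of -2.49 (adjusted p = 0.173) and Myc one of -1.28 (adjusted p = 0.0956), and neither passed the threshold. One listed gene had an unadjusted p under 0.05 in the other direction, the ephrin receptor Epha4, at 1.82 (adjusted p = 0.0525).

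**Figure D2:**
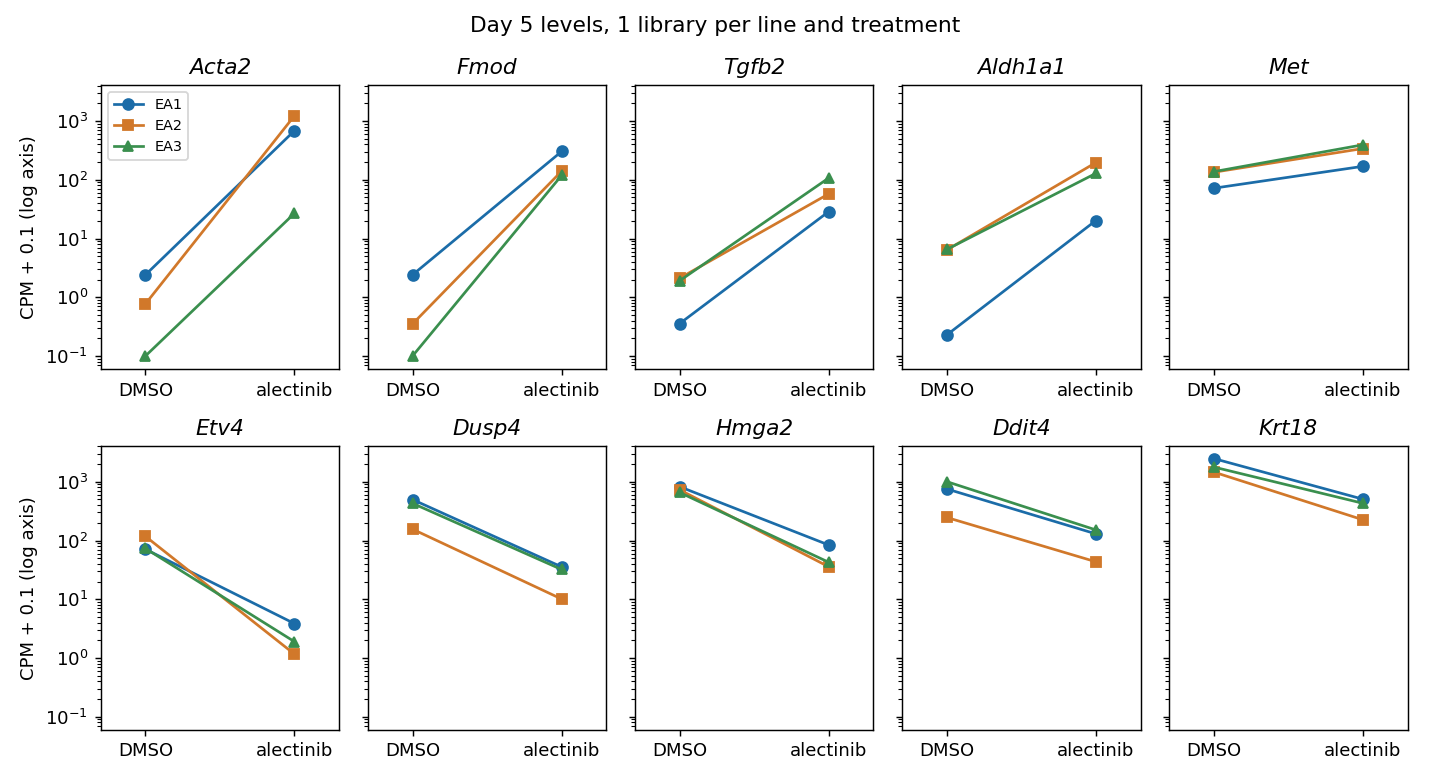
Day 5 levels of 10 genes as CPM plus 0.1 on a log axis, 1 point per library and a line joining the 2 libraries of each cell line. All lines slope upwards for Acta2, Fmod, Tgfb2, Aldh1a1 and Met and downwards for Etv4, Dusp4, Hmga2, Ddit4 and Krt18.

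Of the 12533 genes tested, smooth muscle actin had the highest log2 fold change. Acta2, a marker of smooth muscle and activated fibroblasts, was at 2.31, 0.670 and 0 CPM with DMSO and 684, 1230.3 and 26.7 CPM with alectinib (log2 fold change 9.44, SE 0.73, adjusted p = 0.0241). It was nearly silent in each DMSO library and higher with alectinib in all 3 lines, with its lowest alectinib level in EA3. Myl9, the regulatory light chain of smooth muscle myosin, was at 0.641, 0 and 0 CPM with DMSO and 57.7, 13.5 and 15.5 CPM with alectinib (log2 fold change 7.30, SE 0.69, adjusted p = 0.0241, with DMSO counts of 5, 0 and 0), and Cnn1, the smooth muscle protein calponin, at 1.79, 0 and 0 CPM with DMSO and 54.7, 8.51 and 1.69 CPM with alectinib (log2 fold change 5.70, SE 0.78, adjusted p = 0.0381). Actg2, the enteric smooth muscle actin, was at 1.67, 0 and 0 CPM with DMSO and 190.3, 3.62 and 0.528 CPM with alectinib (log2 fold change 6.88, SE 0.44, adjusted p = 0.0227). For Cnn1 and Actg2 the groups overlapped, because the EA1 DMSO library lay above the EA3 alectinib library, and the latter holds 5 counts of Actg2. These were 4 of 19 contractile and actin-binding genes tested, with 0 lower. An upward sign in all lines was held by 14 of the 19, against 3335 of all 12533 genes tested. At an unadjusted p under 0.05, 14 were higher and 2 lower, and DESeq2 called 13 and 2. The list median was 1.37, and the medians of the lines were 1.12, 1.87 and 1.59.  Smtn, which encodes smoothelin, was at -2.31 (adjusted p = 0.143) and Fhl2, a LIM protein, at -1.40 (adjusted p = 0.144), both without passing the threshold. Vgll3, a cofactor of TEAD factors, was named after its values were seen and was at 0, 0 and 0.658 CPM with DMSO and 9.34, 1.70 and 21.5 CPM with alectinib (log2 fold change 5.97, SE 0.87, adjusted p = 0.0410, with DMSO counts of 0, 0 and 4).

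The CArG box is the binding element of serum response factor, through which contractile genes and immediate early genes are both read. RefSeq promoter sequences on GRCm38.p6 were available for 9434 of the genes tested. In the 250 bases before the RefSeq start, a perfect CArG box on either strand was present in 1.40% of all promoters and 1.15% of those of tested genes. It was present in 5 of 116 promoters of genes that rose and 3 of 131 of genes that fell, and in 6 of 20 of the contractile list. The element was chosen after the expression values were seen. A gene of each direction is shown because both hold it, Myl9 with 1 match and Dusp5 with 2 that adjoin. The sequences run 5′ to 3′ up to the first annotated base of the gene, and capitals mark the CArG box:
Myl9, chr2:156775214-156775419, + strand: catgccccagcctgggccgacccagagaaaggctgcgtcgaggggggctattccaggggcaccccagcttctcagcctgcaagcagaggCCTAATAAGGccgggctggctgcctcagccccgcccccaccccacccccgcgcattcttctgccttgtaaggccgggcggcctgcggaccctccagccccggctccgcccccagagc
Dusp5, chr19:53528895-53529108, + strand: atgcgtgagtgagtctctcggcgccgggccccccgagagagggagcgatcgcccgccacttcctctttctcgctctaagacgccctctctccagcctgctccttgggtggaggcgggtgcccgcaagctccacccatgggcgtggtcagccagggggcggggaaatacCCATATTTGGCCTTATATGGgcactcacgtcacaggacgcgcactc
The match in Myl9 starts 161 bases before the RefSeq start, and those in Dusp5 start 82 and 72 bases before it. A match describes these letters only and shows no binding.

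Matrix genes rose in part. Of 33 collagen and matrix genes tested, 3 rose and 0 fell, with a list median of 1.39 and medians by line of 1.75, 0.87 and 1.00. Of these genes, at an unadjusted p under 0.05, 15 were higher and 1 lower, and DESeq2 called 15 and 1. Thbs1, an adhesive glycoprotein that activates latent TGF-beta, was at 269, 867 and 489.7 CPM with DMSO and 6063, 9206 and 3165 CPM with alectinib (log2 fold change 3.53, SE 0.50, adjusted p = 0.0381). The lowest alectinib library lay above the highest DMSO library. Col1a1 was at 5.77, 0.838 and 7.73 CPM with DMSO and 58.3, 14.8 and 176 CPM with alectinib (log2 fold change 3.98, SE 0.32, adjusted p = 0.0241), and its partner chain Col1a2 at 0, 15.3 and 0.987 CPM with DMSO and 1.00, 79.5 and 10.0 CPM with alectinib (log2 fold change 2.92, SE 0.48, adjusted p = 0.0486). The 2 chains of type I collagen were not highest in the same line, since Col1a1 was highest in EA3 and Col1a2 in EA2. Sparc, a collagen-binding glycoprotein, was at 399.8, 578 and 142 CPM with DMSO and 1701, 1678 and 1126 CPM with alectinib and just missed the threshold (log2 fold change 2.20, SE 0.37, adjusted p = 0.0513).

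Among the largest rises outside that list were small proteoglycans of the matrix. Fmod, which encodes the collagen-binding fibromodulin, was at 2.31, 0.251 and 0 CPM with DMSO and 303, 139.99 and 118 CPM with alectinib (log2 fold change 8.13, SE 0.69, adjusted p = 0.0241), and Ogn, which encodes osteoglycin, at 0, 1.34 and 0.658 CPM with DMSO and 32.9, 49.7 and 32.2 CPM with alectinib (log2 fold change 5.97, SE 0.73, adjusted p = 0.0338). Each was at most 2.31 CPM in any DMSO library and at least 32.2 CPM in any alectinib library. The aggrecanases Adamts5 and Adamts15 cleave large proteoglycans. Adamts5 was at 0, 0.670 and 4.77 CPM with DMSO and 14.8, 58.7 and 121 CPM with alectinib (log2 fold change 5.70, SE 0.62, adjusted p = 0.0301) and Adamts15 at 0.641, 0 and 0 CPM with DMSO and 89.8, 1.70 and 45.7 CPM with alectinib (log2 fold change 7.70, SE 0.62, adjusted p = 0.0241, with DMSO counts of 5, 0 and 0). Their classic substrate moved the other way, as Acan, which encodes aggrecan, was at 3.59, 480.5 and 504 CPM with DMSO and 0, 25.7 and 2.75 CPM with alectinib (log2 fold change -5.83, SE 0.88, adjusted p = 0.0482), with an overlap from the low level in EA1. Pappa2, a protease that frees insulin-like growth factor from its binding proteins, was at 2.31, 0.251 and 0 CPM with DMSO and 406, 6.17 and 5.07 CPM with alectinib (log2 fold change 6.82, SE 0.66, adjusted p = 0.0245). Its rise was far larger in EA1 than in EA2 or EA3. The gelatinase Mmp2 was at 8.97, 0 and 0.658 CPM with DMSO and 81.7, 0 and 4.12 CPM with alectinib (log2 fold change 2.96, SE 0.41, adjusted p = 0.0486), read in EA1 and EA3 only, while Mmp10, a stromelysin, was at 80.9, 226 and 33.2 CPM with DMSO and 1.83, 0.319 and 1.06 CPM with alectinib (log2 fold change -6.31, SE 0.90, adjusted p = 0.0456).

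Because matrix and contractile genes are also fibroblast genes, markers of other cell types were read in every library. Of 8 fibroblast markers, 5 were tested and Col1a1, Col1a2 and Pdgfrb rose. The 8 markers summed to 16.3, 57.1 and 10.2 CPM with DMSO and 476, 129 and 267 CPM with alectinib. DESeq2 called 5 of the 5 tested higher and 0 lower. Col3a1, a chain of fibrillar type III collagen, was at 1.15, 0.587 and 0 CPM with DMSO and 253, 2.87 and 23.6 CPM with alectinib, higher in each line without passing the threshold of edgeR (log2 fold change 6.18, SE 1.29, adjusted p = 0.0780). Lum, which encodes lumican, had 0 counts in all DMSO libraries and 41, 0 and 1 with alectinib. Thy1 had at most 2 counts in any library, and Pdgfra at most 34. Dcn, which encodes decorin, was at 0.128, 40.0 and 0.164 CPM with DMSO and 9.51, 30.7 and 47.2 CPM with alectinib, so that it was not higher with alectinib in EA2. The 6 epithelial markers summed to 9173, 2139 and 6765 CPM with DMSO and 4027, 536 and 2905 CPM with alectinib. Of the 8 leukocyte markers only Cd68 had enough counts to be tested, and Ptprc, the pan-leukocyte gene, had at most 2 counts in a library. No endothelial marker was tested, and their sum was at most 9.38 CPM. The part of other cells in the fibroblast values was not tested.

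Receptors and ligands of other growth pathways changed in both directions. Of 18 receptor tyrosine kinase genes tested, 3 rose and 0 fell. With an unadjusted p under 0.05, 5 were higher and 2 lower, and DESeq2 called 5 and 2. Met, the receptor of hepatocyte growth factor and a known bypass receptor of kinase inhibitors, was at 71.8, 134 and 138 CPM with DMSO and 169, 340.1 and 394 CPM with alectinib (log2 fold change 1.37, SE 0.19, adjusted p = 0.0381). Every alectinib library lay above every DMSO library, with the narrowest gap between EA1 with alectinib and EA3 with DMSO. Fgfr2 was at 0.769, 0 and 2.63 CPM with DMSO and 17.1, 2.34 and 33.5 CPM with alectinib (log2 fold change 4.32, SE 0.61, adjusted p = 0.0384), and Pdgfrb, the receptor of platelet-derived growth factor, at 8.97, 0 and 0 CPM with DMSO and 149.8, 1.49 and 6.55 CPM with alectinib (log2 fold change 4.58, SE 0.60, adjusted p = 0.0367). Pdgfrb was present mostly in EA1, and its levels in EA2 and EA3 with alectinib rest on 14 and 62 counts against 0 with DMSO. Erbb2 was at 42.7, 41.5 and 58.2 CPM with DMSO and 78.1, 64.8 and 94.4 CPM with alectinib (log2 fold change 0.74, SE 0.19, adjusted p = 0.100), and its groups did not overlap, but it did not pass the threshold. Egfr had a log2 fold change of 0.58 (adjusted p = 0.468), and Axl one of 0.25 (adjusted p = 0.676).

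Of 16 growth factor ligand genes tested, 3 rose and 3 fell. At an unadjusted p under 0.05, 4 were higher and 8 lower, and DESeq2 called 4 and 8, and the list median was -0.61. Igf1 was at 1.03, 0.251 and 0.329 CPM with DMSO and 54.0, 9.89 and 4.33 CPM with alectinib (log2 fold change 5.12, SE 0.51, adjusted p = 0.0243). Nrg1, the neuregulin that binds ERBB3 and ERBB4, was at 15.5, 24.3 and 15.0 CPM with DMSO and 61.4, 67.3 and 34.1 CPM with alectinib (log2 fold change 1.55, SE 0.24, adjusted p = 0.0466), with all alectinib libraries above all DMSO libraries. Hgf, the ligand of Met, was at 0.256, 0 and 0.164 CPM with DMSO and 25.5, 1.28 and 2.33 CPM with alectinib (log2 fold change 5.77, SE 0.85, adjusted p = 0.0414). The DMSO level of Hgf rests on 3 counts in all, and the pooled ratio was 94.8 with an exact 95% counting interval of 32.2 to 462. EA1 carries most of it, with alectinib counts of 306, 12 and 22 and DMSO counts of 2, 0 and 1. Those that fell were the EGF family member Hbegf, fibroblast growth factor Fgf2 and the angiogenic factor Vegfa. Hbegf was at 168, 139 and 154 CPM with DMSO and 37.2, 27.7 and 48.2 CPM with alectinib (log2 fold change -2.06, SE 0.22, adjusted p = 0.0257), and Fgf2 at 54.1, 4.69 and 19.6 CPM with DMSO and 12.5, 1.06 and 7.61 CPM with alectinib (log2 fold change -1.85, SE 0.30, adjusted p = 0.0486). Hbegf did not overlap between treatments, whereas Fgf2 did because of low levels in EA2. Vegfa was at 1854, 274 and 2988 CPM with DMSO and 220.2, 90.1 and 377 CPM with alectinib (log2 fold change -2.57, SE 0.41, adjusted p = 0.0475), and its relative Pgf, the placental growth factor, at 253, 41.9 and 352 CPM with DMSO and 4.17, 3.08 and 5.28 CPM with alectinib (log2 fold change -5.31, SE 0.58, adjusted p = 0.0304). The other EGF family members Areg and Btc had log2 fold changes of -4.30 (adjusted p = 0.0530) and -3.13 (adjusted p = 0.0571), without passing the threshold. Irs2, the adaptor of the insulin and IGF1 receptors, was at 11.8, 36.6 and 16.1 CPM with DMSO and 54.1, 168 and 37.4 CPM with alectinib (log2 fold change 1.88, SE 0.28, adjusted p = 0.0432). Every call was lost without EA3, and that of Irs2 also without EA2. The receptor genes Il6st and Tgfbr2 were named after their values were seen. Il6st, the shared signalling chain of IL-6 family cytokines, was at 144, 87.5 and 121 CPM with DMSO and 499.8, 232 and 422 CPM with alectinib (log2 fold change 1.67, SE 0.21, adjusted p = 0.0314), and Tgfbr2, the type II TGF-beta receptor, at 54.2, 119.8 and 90.1 CPM with DMSO and 151, 668 and 244 CPM with alectinib (log2 fold change 1.80, SE 0.29, adjusted p = 0.0477).

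Of 20 chemokine and cytokine genes tested, 3 rose and 2 fell, and the medians of the lines were 2.34, 0.36 and 1.67. With an unadjusted p under 0.05, 9 were higher and 4 lower, and DESeq2 called 8 and 4. Tgfb2 was at 0.256, 2.01 and 1.81 CPM with DMSO and 28.6, 57.4 and 107 CPM with alectinib (log2 fold change 5.57, SE 0.41, adjusted p = 0.0241), with a wide gap between the groups. Cxcl12, the ligand of CXCR4, was at 5.13, 0 and 5.76 CPM with DMSO and 266, 0 and 157 CPM with alectinib (log2 fold change 5.21, SE 0.39, adjusted p = 0.0241), and no read of it was found in EA2. The myeloid chemokine Ccl9 was at 1.54, 0.587 and 1.48 CPM with DMSO and 11.3, 30.5 and 18.9 CPM with alectinib (log2 fold change 4.03, SE 0.65, adjusted p = 0.0486). Lif, an IL-6 family cytokine, was at 124, 58.3 and 349 CPM with DMSO and 10.1, 11.2 and 21.3 CPM with alectinib (log2 fold change -3.36, SE 0.39, adjusted p = 0.0301), and Csf3, the granulocyte colony-stimulating factor, at 0.384, 7.12 and 74.3 CPM with DMSO and 0, 1.28 and 8.56 CPM with alectinib (log2 fold change -2.92, SE 0.44, adjusted p = 0.0430). Socs3, a feedback inhibitor of that cytokine family, was named after its values were seen and was at 85.5, 121 and 241 CPM with DMSO and 29.0, 17.4 and 46.8 CPM with alectinib (log2 fold change -2.24, SE 0.30, adjusted p = 0.0357). The neutrophil chemokine Cxcl1 was at 109, 36.5 and 369 CPM with DMSO and 262, 115 and 248 CPM with alectinib, higher with alectinib in EA1 and EA2 and lower in EA3 (log2 fold change 0.80, SE 0.49, adjusted p = 0.374). Cxcl5 was at 1.03, 195 and 360.2 CPM with DMSO and 129, 542 and 1367 CPM with alectinib (log2 fold change 2.89, SE 1.13, adjusted p = 0.206), and the monocyte chemokine Ccl2 at 3.08, 9.13 and 5.59 CPM with DMSO and 25.0, 14.4 and 37.5 CPM with alectinib (log2 fold change 2.13, SE 0.56, adjusted p = 0.112). Both were higher with alectinib in each line, and neither passed the threshold. Cxcl10 and Ccl5, which draw T cells, had too few counts to be tested on day 5. Cxcl10 had 6, 4 and 37 counts with DMSO and 2, 9 and 64 with alectinib, and Ccl5 had 0, 5 and 11 counts and then 2, 4 and 44.

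Of 26 interferon-stimulated genes tested, 2 rose and 0 fell. An upward sign in all 3 lines was held by 20 of them, against 3335 of all 12533 genes tested. The list median was 1.16, with 1.01, 0.59 and 1.48 by line. By the unadjusted p under 0.05, 13 were higher and 1 lower, and DESeq2 called 9 and 1. Ddx58, which encodes the RNA sensor RIG-I, was at 10.4, 7.88 and 14.8 CPM with DMSO and 38.4, 32.8 and 56.4 CPM with alectinib (log2 fold change 1.96, SE 0.21, adjusted p = 0.0257). Xaf1, an interferon-induced death factor, was at 0.256, 7.71 and 5.92 CPM with DMSO and 1.08, 30.4 and 34.6 CPM with alectinib (log2 fold change 2.22, SE 0.32, adjusted p = 0.0414), with low levels in EA1 throughout. Irgm1, an interferon-induced GTPase, was at 11.4, 11.6 and 10.0 CPM with DMSO and 41.9, 26.2 and 47.6 CPM with alectinib and just missed the threshold (log2 fold change 1.76, SE 0.29, adjusted p = 0.0502). Fas, the death receptor, was at 1.67, 0.0838 and 2.30 CPM with DMSO and 31.7, 5.53 and 17.8 CPM with alectinib (log2 fold change 4.03, SE 0.60, adjusted p = 0.0422). Of 17 MHC class I genes tested, H2-K1 alone passed the threshold and was lower, at 131, 29.7 and 432 CPM with DMSO and 23.3, 7.02 and 168 CPM with alectinib (log2 fold change -1.97, SE 0.28, adjusted p = 0.0388). In this list, at an unadjusted p under 0.05, 2 were higher and 1 lower, and DESeq2 called 1 and 1, and the median was 0.18. The H2-K1 heavy chain belongs to a family of similar genes between which reads can be split. With DMSO, H2-K1 went from 16.5, 15.3 and 43.5 CPM on day 1 to 132, 30.4 and 434 CPM on day 5. With alectinib, it went from 22.2, 19.5 and 108 to 23.3, 7.42 and 171 CPM. Both series are scaled over the 24 libraries of days 1, 2, 3 and 5. The peptide-loading factor Tapbp was at 48.2, 86.8 and 127 CPM with DMSO and 144, 132 and 298 CPM with alectinib and H2-D1 at 187, 63.6 and 364 CPM with DMSO and 126, 45.8 and 294 CPM with alectinib, neither past the threshold (log2 fold changes 1.13 (adjusted p = 0.0801) and -0.45 (adjusted p = 0.218)). Of the complement list, C1ra, a protease of the first component, was at 0.384, 4.11 and 13.8 CPM with DMSO and 17.1, 35.0 and 117 CPM with alectinib (log2 fold change 3.54, SE 0.47, adjusted p = 0.0372), and C4bp, an inhibitor of the pathway that is not in that list and was among the largest rises, at 2.43, 0 and 0.164 CPM with DMSO and 96.9, 1.28 and 22.6 CPM with alectinib (log2 fold change 5.76, SE 0.48, adjusted p = 0.0241).

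**Figure D3:**
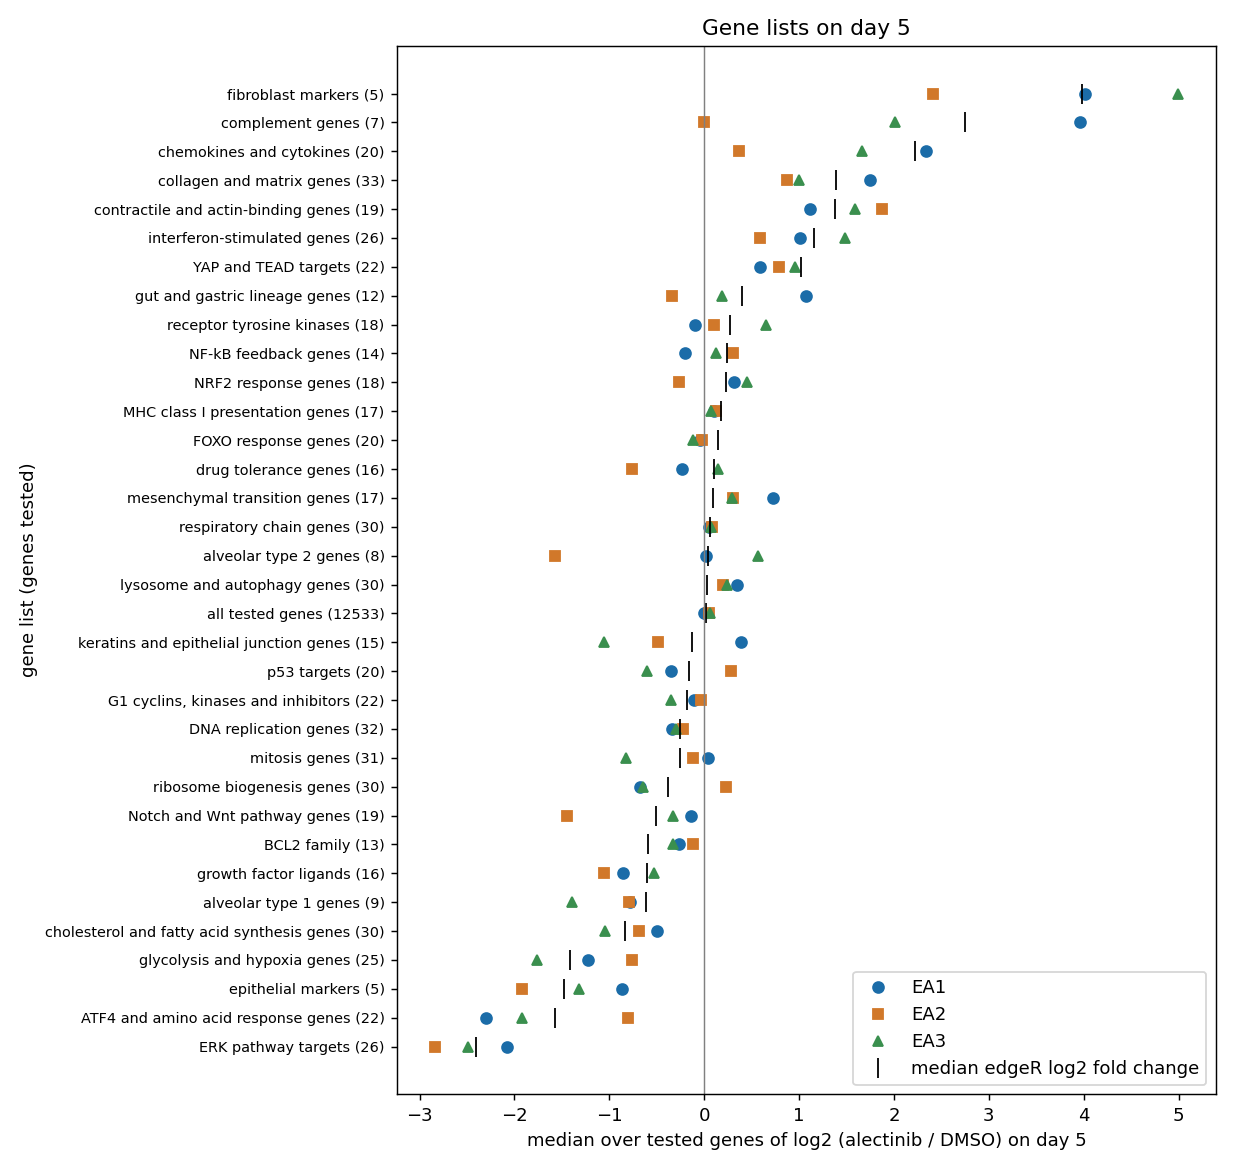
Median log2 ratio of alectinib to DMSO on day 5 for each gene list, with the number of genes tested in brackets. Coloured points are the 3 lines, black ticks are medians of the edgeR estimates, and all tested genes are shown for scale. The edgeR median is lowest for ERK pathway targets, whose lines lie between -2.84 and -2.08.

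Epithelial identity genes gave a mixed picture. Krt18, a keratin of simple epithelia, was at 2480.3, 1461 and 1779 CPM with DMSO and 505, 225 and 429.9 CPM with alectinib (log2 fold change -2.35, SE 0.29, adjusted p = 0.0311). It was the only one of 15 keratin and junction genes past the threshold, while at an unadjusted p under 0.05, 3 were higher and 4 lower, and DESeq2 called 3 and 4. Its partner Krt8 was at 4133, 248 and 1586 CPM with DMSO and 1714, 57.5 and 624 CPM with alectinib (log2 fold change -1.57, SE 0.32, adjusted p = 0.0684), and Krt19 at 2047, 364 and 2461 CPM with DMSO and 1129, 108 and 693 CPM with alectinib (log2 fold change -1.48, SE 0.33, adjusted p = 0.0780). Both were lower in each line without passing the threshold. The adhesion gene Cdh1, which encodes E-cadherin, went the other way, at 512, 65.4 and 633 CPM with DMSO and 675, 146 and 1048 CPM with alectinib (log2 fold change 0.76, SE 0.26, adjusted p = 0.158). Cdh2, which encodes N-cadherin, was at 73.2, 124 and 52.3 CPM with DMSO and 149, 912 and 211 CPM with alectinib (log2 fold change 1.98, SE 0.40, adjusted p = 0.0701), and Zeb1, a repressor of epithelial genes, at 49.5, 43.7 and 53.1 CPM with DMSO and 86.3, 82.7 and 76.5 CPM with alectinib (log2 fold change 0.75, SE 0.19, adjusted p = 0.104). Both were higher in each line and neither passed the threshold. Sox9, a factor of lung tip progenitors and of ductal epithelium, was at 526, 147 and 507 CPM with DMSO and 19.7, 16.3 and 48.4 CPM with alectinib (log2 fold change -3.76, SE 0.39, adjusted p = 0.0257). No alveolar type 1 or type 2 gene was past the threshold of edgeR among 9 and 8 tested. At an unadjusted p under 0.05, 4 type 1 genes were lower and 0 higher, and 1 type 2 gene was lower and 1 higher, while DESeq2 called 3 type 1 genes and 1 type 2 gene lower. Of 19 Notch and Wnt pathway genes tested, 2 rose and 1 fell, with a list median of -0.51. Without adjustment, at p under 0.05, 3 were higher and 7 lower, and DESeq2 called 2 and 6. Wnt4, a secreted Wnt ligand, was at 1.79, 0.168 and 0.329 CPM with DMSO and 46.0, 3.72 and 5.81 CPM with alectinib (log2 fold change 4.45, SE 0.41, adjusted p = 0.0241), and Lgr4, a receptor that strengthens Wnt signals, at 16.0, 11.1 and 17.1 CPM with DMSO and 116, 43.5 and 85.3 CPM with alectinib (log2 fold change 2.38, SE 0.26, adjusted p = 0.0257). Nrarp, a feedback inhibitor of Notch, was at 4.87, 11.1 and 17.9 CPM with DMSO and 0.917, 0.745 and 1.69 CPM with alectinib (log2 fold change -3.22, SE 0.50, adjusted p = 0.0468), and 79.4% of its exon bases lie opposite another annotated gene, so that its reads may be shared.

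Architectural chromatin proteins of the HMGA class are abundant in embryonic and tumor cells. Hmga1, Hmga2 and Hmga1b fell, and were named after their values were seen. Hmga1 was at 1045, 1048 and 1739.9 CPM with DMSO and 12.8, 31.6 and 94.9 CPM with alectinib (log2 fold change -5.18, SE 0.53, adjusted p = 0.0257), and Hmga2 at 825, 729 and 657 CPM with DMSO and 83.8, 35.6 and 42.6 CPM with alectinib (log2 fold change -3.86, SE 0.31, adjusted p = 0.0241). Neither gene overlapped between treatments. Hmga1b, a near copy of Hmga1, was at 12.4, 583 and 22.0 CPM with DMSO and 0.667, 13.8 and 1.16 CPM with alectinib (log2 fold change -4.75, SE 0.36, adjusted p = 0.0241), and reads may be divided between it and Hmga1. Genes of drug handling changed as well. Aldh1a1, a retinaldehyde dehydrogenase used as a marker of stem-like tumor cells, was at 0.128, 6.28 and 6.41 CPM with DMSO and 20.1, 196 and 128 CPM with alectinib (log2 fold change 4.96, SE 0.45, adjusted p = 0.0241). The efflux pump genes Abcb1a and Abcb1b fell. Abcb1a was at 166, 15.5 and 93.9 CPM with DMSO and 29.9, 2.77 and 13.2 CPM with alectinib (log2 fold change -2.60, SE 0.21, adjusted p = 0.0241), and Abcb1b at 85.5, 58.7 and 69.1 CPM with DMSO and 12.8, 17.1 and 17.9 CPM with alectinib (log2 fold change -2.15, SE 0.27, adjusted p = 0.0311). Of 16 drug tolerance genes tested, these were the only ones past the threshold, while at an unadjusted p under 0.05, 2 were higher and 5 lower, and DESeq2 called 2 and 4. Abcg2, another efflux pump gene, did not pass the threshold but was higher with alectinib in each line. Scaled over the 24 libraries, it was at 29.9, 0.945 and 3.79 CPM with DMSO and 71.3, 2.70 and 9.49 CPM with alectinib on day 5. Mgst1, a membrane glutathione transferase, was named after its values were seen and was at 87.9, 12.8 and 135 CPM with DMSO and 408, 42.8 and 381 CPM with alectinib (log2 fold change 1.82, SE 0.23, adjusted p = 0.0314), and Gsta3, of the soluble family, was read in EA1 and EA3 only, at 0, 0 and 1.81 CPM with DMSO and 11.8, 0 and 116 CPM with alectinib (log2 fold change 6.32, SE 0.66, adjusted p = 0.0348).

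AP-1, the dimer of FOS and JUN proteins, binds the letters TGANTCA. In the 250 bases before the RefSeq start, this motif on either strand was present in 6.87% of all promoters and in 4.43% of those of tested genes. It was present in 11 of 116 promoters of genes that rose and 12 of 131 of genes that fell, 9.48% and 9.16%. A gene of each direction is shown, Aldh1a1 and Mmp10, because the motif stood upstream of genes that rose and of genes that fell. Fos, Fosl1 and Jun were lower with alectinib than with DMSO on day 5. Capitals mark the motif:
Aldh1a1, chr19:20492333-20492582, + strand: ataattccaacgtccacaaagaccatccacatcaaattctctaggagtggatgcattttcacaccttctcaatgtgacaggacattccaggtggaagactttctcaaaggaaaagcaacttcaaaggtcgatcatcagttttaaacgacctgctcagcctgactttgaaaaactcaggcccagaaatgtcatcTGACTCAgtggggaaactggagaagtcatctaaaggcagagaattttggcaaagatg
Mmp10, chr9:7502092-7502341, + strand: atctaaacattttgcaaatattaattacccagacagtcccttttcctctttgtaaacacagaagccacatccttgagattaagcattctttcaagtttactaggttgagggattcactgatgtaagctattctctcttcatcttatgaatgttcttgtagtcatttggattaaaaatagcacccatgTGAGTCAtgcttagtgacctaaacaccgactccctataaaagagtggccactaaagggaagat
The match starts 57 bases before the start in Aldh1a1 and 63 bases before it in Mmp10. The ETS core CCGGAAG was present in 14.5% of promoters of tested genes, 2.59% of those that rose and 6.87% of those that fell, and in none of the 17 promoters matched for ERK pathway targets. The interferon response core GAAANNGAA was present in 15 of 30 promoters of the interferon list and in 7.16% of all promoters.

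Of 25 glycolysis and hypoxia genes tested, 5 fell and 0 rose. A downward sign in all 3 lines was held by 20 of them, against 2751 of all 12533 genes tested. The medians of the lines were -1.23, -0.76 and -1.76. Before adjustment, at p under 0.05, 0 were higher and 18 lower, and DESeq2 called 0 and 20. Slc2a1, the main glucose carrier GLUT1, was at 1049.6, 159.8 and 1129 CPM with DMSO and 159, 36.6 and 112 CPM with alectinib (log2 fold change -2.73, SE 0.32, adjusted p = 0.0301). Hk2, the hexokinase induced in tumors, was at 353, 118 and 819.6 CPM with DMSO and 142, 34.7 and 172 CPM with alectinib (log2 fold change -1.78, SE 0.26, adjusted p = 0.0421), and Pdk1, the kinase that inhibits pyruvate dehydrogenase, at 401, 178 and 410.1 CPM with DMSO and 124, 40.3 and 133 CPM with alectinib (log2 fold change -1.82, SE 0.22, adjusted p = 0.0304). EA2 was the lowest line for these 3 genes with either treatment. Its DMSO level lay close to the EA1 alectinib level for Slc2a1 and below the EA1 and EA3 alectinib levels for Hk2. Pfkp, a phosphofructokinase, was at 516, 23.5 and 188 CPM with DMSO and 106, 10.4 and 35.0 CPM with alectinib (log2 fold change -1.98, SE 0.31, adjusted p = 0.0475). Of 22 ATF4 and amino acid response genes tested, 4 fell and 0 rose, with medians by line of -2.30, -0.80 and -1.92. By the unadjusted p under 0.05, 0 were higher and 17 lower, and DESeq2 called 0 and 17. Ddit4, an inhibitor of mTORC1 induced by hypoxia and ATF4, was at 755, 247 and 1006 CPM with DMSO and 129.8, 43.4 and 152 CPM with alectinib (log2 fold change -2.59, SE 0.22, adjusted p = 0.0241). Slc7a11, the cystine carrier, was at 90.1, 90.9 and 173 CPM with DMSO and 16.0, 21.4 and 26.5 CPM with alectinib (log2 fold change -2.43, SE 0.22, adjusted p = 0.0241), and Cth, which makes cysteine from cystathionine, at 60.4, 22.2 and 27.1 CPM with DMSO and 1.00, 2.34 and 1.90 CPM with alectinib (log2 fold change -4.27, SE 0.61, adjusted p = 0.0423). Mthfd2, a folate enzyme of mitochondria, was at 127, 152 and 114 CPM with DMSO and 24.02, 70.7 and 26.8 CPM with alectinib (log2 fold change -1.86, SE 0.31, adjusted p = 0.0495). Slc7a11 and Cth did not overlap between treatments.

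None of the 30 cholesterol and fatty acid synthesis genes passed the threshold of edgeR, although 17 were lower and 0 higher at an unadjusted p under 0.05 and DESeq2 called 12 lower and 0 higher. Their median was -0.83, with -0.49, -0.68 and -1.05 by line. Insig1, a sterol sensor, was at 177, 176 and 331 CPM with DMSO and 43.9, 66.8 and 29.6 CPM with alectinib (log2 fold change -2.28, SE 0.45, adjusted p = 0.0703), and Fdft1, the squalene synthase, at 141, 165 and 130.3 CPM with DMSO and 72.1, 80.0 and 37.7 CPM with alectinib (log2 fold change -1.26, SE 0.24, adjusted p = 0.0629). Cpt1a, which admits fatty acids to mitochondria for oxidation, and Lipa, the lysosomal acid lipase, were named after their values were seen and rose. Cpt1a was at 92.7, 35.9 and 43.9 CPM with DMSO and 253, 204 and 328 CPM with alectinib (log2 fold change 2.29, SE 0.34, adjusted p = 0.0422), and Lipa at 44.6, 2.35 and 15.8 CPM with DMSO and 122, 11.8 and 82.0 CPM with alectinib (log2 fold change 2.03, SE 0.27, adjusted p = 0.0360). The call of Cpt1a was lost without EA2 and, as every call was, without EA3. Atg9b, of the autophagy machinery, was at 70.2, 17.5 and 639.7 CPM with DMSO and 8.09, 0.532 and 13.6 CPM with alectinib (log2 fold change -4.50, SE 0.59, adjusted p = 0.0384). It was the only one of 30 lysosome and autophagy genes past the threshold, although at an unadjusted p under 0.05, 8 were higher and 2 lower, and DESeq2 called 8 and 2, with a list median of 0.03. No respiratory chain gene of 30 passed it, with 3 higher and 1 lower at an unadjusted p under 0.05 and 0 called by DESeq2.

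Several of these genes had other levels in the DMSO cultures of day 1. Slc2a1 went from 136, 115 and 182 CPM on day 1 to 1057, 164 and 1132 CPM on day 5 with DMSO, and was at 139, 66.4 and 97.7 and 159, 38.7 and 115 CPM with alectinib, scaled over the 24 libraries of days 1, 2, 3 and 5. Pgf went from 7.77, 19.7 and 6.12 to 255, 43.0 and 353 CPM with DMSO and from 4.35, 9.56 and 3.51 to 4.17, 3.26 and 5.39 CPM with alectinib. In both genes the DMSO levels of EA1 and EA3 were far higher on day 5 than on day 1. Over the glycolysis and hypoxia list, the median change in log2 CPM, with 1 CPM added, from day 1 to day 5 was 1.60, 0.45 and 1.66 with DMSO and 0.40, 0.04 and 0.63 with alectinib. For the ATF4 list it was 1.08, 0.83 and 1.32 and 0.06, 0.88 and -0.08. For ERK pathway targets it was 0.24, 0.27 and 0.69 and -0.02, -0.44 and 0.08. A day 5 difference from DMSO of the same day and a change of the DMSO culture with time cannot be told apart by the day 5 comparison alone.

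**Figure D4:**
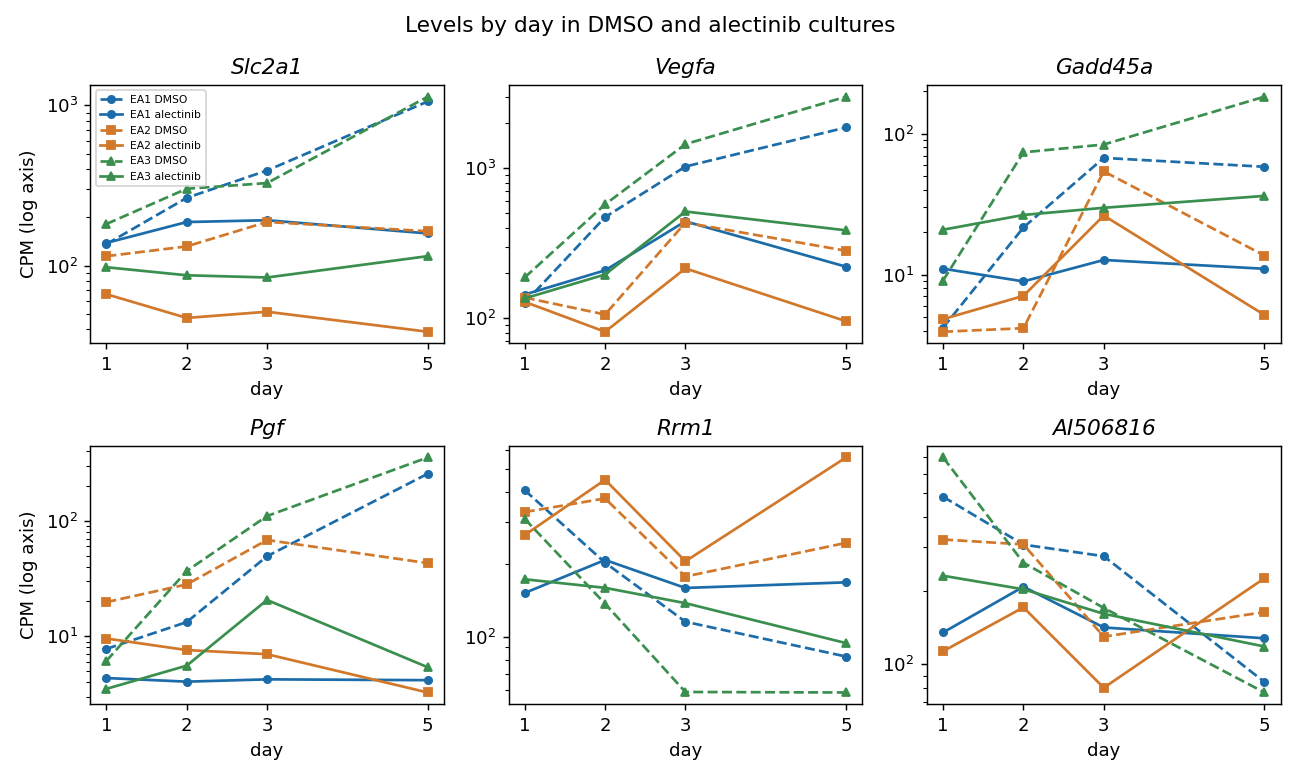
Levels of 6 genes on days 1, 2, 3 and 5 in CPM on a log axis, dashed for DMSO and solid for alectinib, 1 point per library. In the DMSO cultures of EA1 and EA3, Slc2a1, Vegfa, Gadd45a and Pgf are higher on day 5 than on day 1, while Rrm1 and AI506816 are lower and lie below the alectinib cultures of day 5.

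None of 32 DNA replication genes passed the threshold of edgeR, with 1 higher and 7 lower at an unadjusted p under 0.05, and DESeq2 called 1 higher and 3 lower. Their medians by line were -0.34, -0.23 and -0.29 on day 5 and -1.78, -0.91 and -1.57 on day 1. Of 31 mitosis genes none was past it either, with 0 higher and 4 lower at an unadjusted p under 0.05 and 0 and 3 by DESeq2, and the medians were 0.04, -0.12 and -0.83 on day 5 and -1.95, -1.14 and -1.43 on day 1. With DMSO, the mitosis list changed by -2.11, -0.29 and -1.89 from day 1 to day 5, and with alectinib by -0.16, 0.60 and -1.30. Top2a, which untangles DNA before mitosis, was at 263, 698 and 239 CPM with DMSO and 197, 403 and 132 CPM with alectinib on day 5 (log2 fold change -0.69, SE 0.22, adjusted p = 0.144), and Rrm1, the large subunit of ribonucleotide reductase, at 81.9, 239.9 and 58.2 CPM with DMSO and 168, 529 and 91.9 CPM with alectinib (log2 fold change 0.95, SE 0.20, adjusted p = 0.0746). Rrm1 was higher with alectinib in each line without passing the threshold. Cdkn1a, the inhibitor p21, was at 322, 21.2 and 344 CPM with DMSO and 109, 6.49 and 30.9 CPM with alectinib (log2 fold change -2.24, SE 0.46, adjusted p = 0.0711) and did not pass the threshold. Of 20 p53 targets tested, Fas rose and Gdf15 fell, while at an unadjusted p under 0.05, 3 were higher and 5 lower, and DESeq2 called 1 and 3. Gdf15, a stress cytokine, was at 671, 96.5 and 105 CPM with DMSO and 50.0, 13.8 and 2.96 CPM with alectinib (log2 fold change -3.84, SE 0.50, adjusted p = 0.0381), and was highest in EA1 with either treatment. No BCL2 family gene of 13 passed the threshold, with 2 higher and 3 lower at an unadjusted p under 0.05 and 1 and 1 by DESeq2. Bmf, a death-promoting member induced by loss of kinase signals, was at 69.3, 11.8 and 70.6 CPM with DMSO and 202, 17.4 and 308 CPM with alectinib (log2 fold change 1.43, SE 0.34, adjusted p = 0.0928), and Bcl2l1, which encodes BCL-XL, at 205, 139 and 238 CPM with DMSO and 95.3, 36.5 and 126 CPM with alectinib (log2 fold change -1.31, SE 0.27, adjusted p = 0.0686).

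The remaining lists had few calls by edgeR. On day 5, 0 rose and 0 fell of 22 G1 cyclins, kinases and inhibitors, where 1 were higher and 5 lower at an unadjusted p under 0.05 and DESeq2 called 0 and 2. Among FOXO response genes, 1 rose and 1 fell of 20 tested, where 1 were higher and 4 lower at an unadjusted p under 0.05 and DESeq2 called 2 and 3. Among NF-kB feedback genes, 0 rose and 0 fell of 14 tested, where 3 were higher and 2 lower at an unadjusted p under 0.05 and DESeq2 called 2 and 2. Among ribosome biogenesis genes, 0 rose and 0 fell of 30 tested, where 0 were higher and 4 lower at an unadjusted p under 0.05 and DESeq2 called 0 and 1. Among NRF2 response genes, 0 rose and 1 fell of 18 tested, where 2 were higher and 2 lower at an unadjusted p under 0.05 and DESeq2 called 3 and 2. Among mesenchymal transition genes, 1 rose and 0 fell of 17 tested, where 5 were higher and 0 lower at an unadjusted p under 0.05 and DESeq2 called 4 and 1. Among gut and gastric lineage genes, 0 rose and 1 fell of 12 tested, where 3 were higher and 1 lower at an unadjusted p under 0.05 and DESeq2 called 1 and 1. In the complement list, which leaves out C4bp, 1 rose and 0 fell of 7 tested, where 4 were higher and 0 lower at an unadjusted p under 0.05 and DESeq2 called 4 and 0.

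The day 5 response was then compared with that of day 1, measured in 6 other libraries of the same lines, in 1 fit of 24 libraries blocked by line and day. Of 14698 genes tested, 1 had a higher alectinib effect on day 5 than on day 1 (0.0068%) and 0 had a lower one (0%). At an unadjusted p under 0.05, 1064 were higher and 982 lower, DESeq2 called 233 and 309, and the median SE of the difference was 0.445. Without EA1 or without EA3 edgeR called none in either direction, and without EA2 it called 2 and 15. The single gene was AI506816, a non-coding transcript on chromosome 5 (23698296 to 23712667, minus strand, GRCm38). Its alectinib effect was -1.65 on day 1 and 0.54 on day 5, and the difference was 2.21 (SE 0.25, adjusted p = 0.0238). The call was lost without any 1 of the 3 lines, where the difference lay between 2.09 and 2.38. With DMSO, AI506816 went from 483, 323 and 698 CPM on day 1 to 84.8, 164 and 76.9 CPM on day 5, and with alectinib it was at 135, 113 and 229.9 and 128, 225 and 118 CPM.

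Of the 345 genes called on day 5, 289 had their day 5 sign in all 3 lines on day 1, 326 on day 2 and 317 on day 3. The genes that rose had median log2 ratios of 2.12, 1.57 and 1.72 on day 1 and 2.64, 2.28 and 2.43 on day 5, and those that fell -1.08, -1.10 and -0.94 and -2.38, -2.10 and -2.36. The day 5 values are those the genes were chosen on and tend to be too large. Acta2 with alectinib went from 463, 48.2 and 2.31 CPM on day 1 to 684, 1301 and 27.3 CPM on day 5, and Krt18 from 1091, 608 and 1031 to 505, 238 and 439 CPM. The Acta2 level of EA1 was closest to its day 5 level on day 1, and those of EA2 and EA3 were far below it. Of the lists, DNA replication genes had 22 of 32 genes with a higher effect on day 5 at an unadjusted p under 0.05 and 0 with a lower one, and mitosis genes 17 of 31 and 0. Glycolysis and hypoxia genes had 0 and 10 of 26, and ERK pathway targets 0 and 7 of 26. NF-kB feedback genes had 0 and 7 of 14, and ribosome biogenesis genes 10 and 0 of 30. Every other list had at most 6 such genes in either direction. None of the genes in these lists passed the adjusted threshold of edgeR. DESeq2 called 9 replication genes and 2 mitosis genes higher, and 6 glycolysis and hypoxia genes, 3 ERK pathway targets and 4 NF-kB feedback genes lower. It called 1 ribosome biogenesis gene higher.

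**Figure D5:**
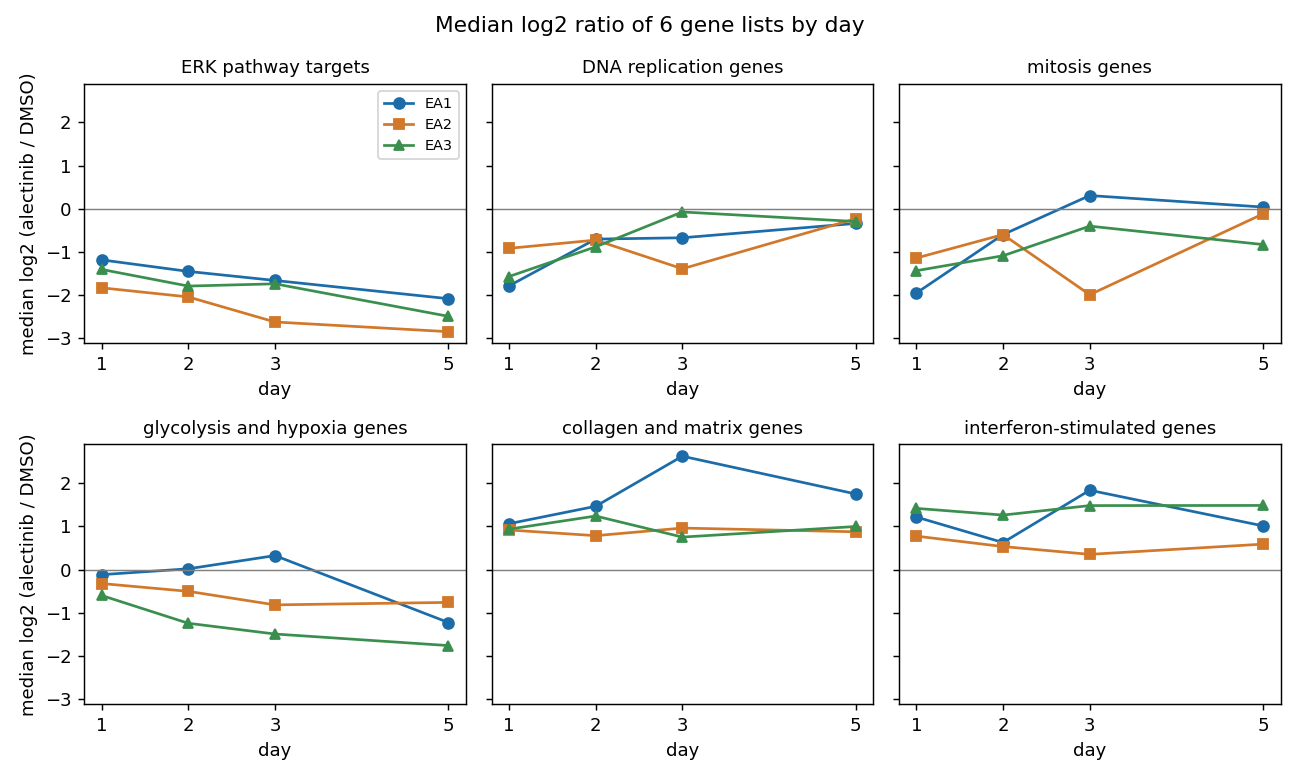
Median log2 ratio of alectinib to DMSO by day for 6 gene lists, 1 line per cell line. ERK pathway targets lie at or below -1.18 on every day, DNA replication genes end between -0.34 and -0.23, and interferon-stimulated genes stay above 0 in all lines.

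The largest changes were ranked among called genes with 1 sign in all lines and a mean log2 CPM of 3 or more. Of the other genes among the 24 largest changes in that ranking, Hpgd, which inactivates prostaglandins, was at 0, 0 and 0.493 CPM with DMSO and 3.75, 10.4 and 126 CPM with alectinib (log2 fold change 8.16, SE 0.50, adjusted p = 0.0207). Its DMSO level rests on 3 counts in all, and the pooled ratio was 372 with an exact 95% counting interval of 127 to 1806. That ratio is carried by EA3, since the alectinib counts were 45, 98 and 1191 and the DMSO counts 0, 0 and 3. Scn3a, a sodium channel, was at 0, 1.09 and 0.493 CPM with DMSO and 11.4, 117 and 28.0 CPM with alectinib (log2 fold change 6.61, SE 0.47, adjusted p = 0.0241), and Cacna1g, a T-type calcium channel, at 0.384, 0.168 and 19.2 CPM with DMSO and 80.0, 4.04 and 684 CPM with alectinib (log2 fold change 5.75, SE 0.59, adjusted p = 0.0265). Scn3a was highest in EA2 and Cacna1g in EA3. Among the falls, Csn3, the milk protein kappa-casein, was at 13.5, 4.86 and 62.5 CPM with DMSO and 0, 0 and 0.211 CPM with alectinib (log2 fold change -8.44, SE 0.59, adjusted p = 0.0241). Its alectinib level rests on 2 counts, and DMSO exceeded it 324-fold with an exact 95% counting interval of 89.4 to 2686. Mcpt8, whose product is named mast cell protease 8, was at 25.1, 25.5 and 34.4 CPM with DMSO and 0.334, 0 and 0.106 CPM with alectinib (log2 fold change -7.42, SE 0.71, adjusted p = 0.0241), and Cd53, a tetraspanin of leukocytes, at 47.0, 40.0 and 31.4 CPM with DMSO and 0.667, 0 and 0.211 CPM with alectinib (log2 fold change -7.08, SE 0.70, adjusted p = 0.0257). These 2 genes are best known from blood cells, but they were read in all DMSO libraries while Ptprc was not above 2 counts. The macrophage and lysosome gene Cd68 was at 9.48, 45.3 and 91.5 CPM with DMSO and 5.50, 21.8 and 6.55 CPM with alectinib, lower in each line without passing the threshold (log2 fold change -1.83, SE 0.68, adjusted p = 0.192), and the part of other cells in these values was not tested. Nptx1, a neuronal pentraxin, was at 49.0, 81.1 and 39.8 CPM with DMSO and 0.584, 0 and 0.740 CPM with alectinib (log2 fold change -6.88, SE 0.83, adjusted p = 0.0338), Tmem163, a zinc transporter, at 40.0, 23.4 and 23.5 CPM with DMSO and 0.834, 0 and 0.106 CPM with alectinib (log2 fold change -6.71, SE 0.75, adjusted p = 0.0301), and the serine protease Prss22 at 53.2, 48.4 and 501 CPM with DMSO and 0.167, 0 and 15.2 CPM with alectinib (log2 fold change -6.49, SE 0.88, adjusted p = 0.0408). Each was at or below 1 CPM with alectinib, except Prss22 in EA3. The predicted antisense gene Gm49774 was at 6.15, 15.3 and 25.7 CPM with DMSO and 0.0834, 0.213 and 1.16 CPM with alectinib (log2 fold change -5.28, SE 0.56, adjusted p = 0.0257). Of its exon bases, 3.46% lie opposite exons of Hmga1 and Gm49773, so that reads may be shared with the far more abundant Hmga1.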

How the data were processed

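Cells were sequenced as poly(A) RNA with a stranded kit and paired reads. Per the methods, bbduk removed adapters and STAR aligned the reads to mm10. The deposited values are raw counts by gene, made by the authors with STAR's own counter. The annotation release and the strand of that counter are not given in the sources used here. FastQC, STAR and edgeR are named in the submitters' processing notes. The table lists 55415 symbols, among them 24 dates in place of a gene name. These rows took 0.129% to 0.201% of the counts and did not enter any step. Of the others, 55314 matched GENCODE M21 (GRCm38) when case was ignored.

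The tests ran in edgeR 4.0.16 and DESeq2 1.42.0 under R 4.3.3. Summaries used Python 3.11.15. The 6 day 5 libraries were fitted with TMM factors, filterByExpr, a block for the line and the robust quasi-likelihood test. Same-line libraries pair by cell line, and their deviations from the group means correlated at 0.604, 0.659 and 0.712, against -0.157 to -0.439 between lines. Log2 ratios per line used the TMM factors of 24 libraries and a prior count of 2. A floor of 3 counts and all counting intervals cover counting error only. Named genes were those the study names for these lines, the 12 largest rises and falls, the 4 smallest p-values of each gene list and the called changes of effect from day 1, plus others chosen after their values were seen, namely Aldoc, Areg, Axl, Bmp2, Bmp7, Btc, Ccl9, Ccn4, Cpt1a, Dclk1, Dusp9, Egfr, Egr1, Epha4, Fgf2, Fhl2, Fstl1, Gsta3, Hgfac, Hmga1, Hmga1b, Hmga2, Ier3, Il6st, Jun, Lipa, Mgst1, Myc, Ncam1, Nrp1, Smtn, Socs3, Stc1, Tgfbr2, Trp53, Vegfa and Vgll3. The largest rises and falls were ranked among called genes with 1 sign in all lines and a mean log2 CPM of 3 or more. The members, lists and alternatives were chosen with earlier results of these data known. In simulated counts, the day 5 test recovered 76 of 102 genes changed by a log2 fold of 2 and 86 of 91 changed by 3, and called 9 of 12174 unchanged genes. For day 5 minus day 1 it recovered 59 of 102 and 69 of 97, and called 12 of 13989. The simulation gave all lines 1 mean level per gene and took the spread from the trend over genes. It held no gene-specific spread between lines, so that its counts may not hold for these data. The alternatives were other scalings, filters, tests and sets of libraries. The libraries labelled EA3 day 7 correlated best with EA2 and were not used for the comparisons.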

Additional observations from a re-analysis of the deposited data

Results flagged for a closer look

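For 11 named genes, the log2 ratio had one sign in all lines on day 1 and the opposite sign in all lines on day 5. In edgeR's test of the day 5 effect minus the day 1 effect, AI506816 passed the threshold and the other 10 did not. Among the latter the log2 difference was -2.66 for H2-K1 (adjusted p = 0.0532), -2.35 for Krt19 (adjusted p = 0.0704), 1.83 for Rrm1 (adjusted p = 0.0808), -3.06 for Gadd45a (adjusted p = 0.0847), -3.44 for Aldoc (adjusted p = 0.0913), -1.97 for Traf1 (adjusted p = 0.105), -1.72 for Ccng2 (adjusted p = 0.117), 0.76 for Ndufs1 (adjusted p = 0.126), -1.38 for Bbc3 (adjusted p = 0.152) and -2.44 for Cd68 (adjusted p = 0.219). The smallest log2 ratio in size on either day was 0.319 for Rrm1, 0.516 for Ccng2, 0.283 for Gadd45a, 0.221 for Bbc3, 0.349 for H2-K1, 0.465 for Traf1, 0.511 for Krt19, 0.156 for Ndufs1, 0.234 for Cd68, 0.457 for AI506816 and 0.0846 for Aldoc. Rrm1, Ndufs1 and AI506816 were lower with alectinib on day 1 and higher on day 5, and the other 8 were higher on day 1 and lower on day 5. Of these, Gadd45a, H2-K1 and Aldoc passed the threshold on day 5. Gadd45a, a stress gene that slows the cell cycle, was at 4.20, 3.93 and 9.09 CPM on day 1 and 58.3, 13.7 and 184 CPM on day 5 with DMSO, and at 11.0, 4.83 and 20.9 and 11.0, 5.17 and 36.2 CPM with alectinib.

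AI506816 was the only gene whose difference between the day 5 and day 1 effects passed the test, at 2.21 on the log2 scale, with a higher ratio on day 5 in 3 of 3 lines.

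The 2 libraries labelled EA3 day 7 were outside all comparisons. Called genes with 1 sign in all lines and a mean log2 CPM of 3 or more were ranked by their day 5 change. In the day 7 libraries, 24 of the 24 genes with the largest changes in that ranking had the sign of day 5. Acta2 had a log2 ratio of 11.33 there and Etv4 one of -6.70. Because these libraries correlated best with EA2 (0.969 and 0.982) rather than with EA3 (0.895 and 0.881), they were read only as a pair and given no line.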

How the results depend on the processing

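Higher and lower genes on day 5 numbered 161 and 184. DESeq2's Wald test called 825 and 1002, no filter on low counts 571 and 574, and the fit of 24 libraries 1136 and 1038. With no replicate block edgeR called 0 and 0, although 1502 and 1547 genes of the blocked fit had an unadjusted p under 0.05. Leaving out 1 line in turn gave 0 to 428 higher and 0 to 604 lower genes, with none called without EA3. Other settings stayed within 1.5 times these counts, and library size alone moved the median log2 fold change of all genes from 0.02 to 0.13. Of the effect on day 5 minus day 1, 1 gene was higher and 0 lower. DESeq2 called 233 and 309, no filter 57 and 100, library size alone 1 and 1, no replicate block 0 and 0, the 12 libraries of days 1 and 5 0 and 0, leaving out 1 line 0 to 2 and 0 to 15, and the day 5 effect minus the mean of days 1, 2 and 3, chosen after seeing the data, 0 and 0. The cause of these differences was not tested, except that leaving out a line leaves fewer samples.

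All 345 genes kept their sign in every setting in which they were tested. Of the 99 named genes past the threshold, 98 stayed past it with DESeq2 and 98 with DESeq2 size factors in edgeR, 91 with library size alone, 92 with no filter, 95 in the fit of 24 libraries and 48 of 48 tested with at least 10 counts in every library. Without EA1, 53 of 97 stayed past it, without EA2 96 of 98, and without EA3 or with no block none. Trp53, which did not pass the threshold, was at -0.25 and ranged from -0.45 to 0.11 when 1 line was left out, with the positive value without EA2. Axl, which did not pass it either, was at 0.25 and ranged from -0.11 without EA3 to 0.49 without EA2. Low counts limit the folds of Hpgd, Hgf, Csn3, Vgll3, Myl9, Adamts15, Mcpt8, Ccdc80, Cd53, Tmem163 and Gsta3, whose lower group held between 2 and 11 counts in all, and AI506816 lost its call in 6 of the alternatives.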

Other observations

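Further genes past the threshold on day 5 that belong to none of the groups above were named after their values were seen. Dclk1, a kinase known from tuft cells and stem-like tumor cells, was at 0.384, 4.94 and 6.74 CPM with DMSO and 13.3, 98.0 and 143 CPM with alectinib (log2 fold change 4.47, SE 0.26, adjusted p = 0.0207). Ccn4, a matricellular protein of Wnt-responsive cells, was at 1.03, 4.11 and 1.48 CPM with DMSO and 22.4, 62.7 and 70.0 CPM with alectinib (log2 fold change 4.57, SE 0.40, adjusted p = 0.0241), and Fstl1, a secreted follistatin-like protein, at 37.0, 0.251 and 0.987 CPM with DMSO and 623, 2.13 and 129 CPM with alectinib (log2 fold change 4.86, SE 0.76, adjusted p = 0.0495), mostly in EA1 and EA3. The adhesion molecule Ncam1 was at 172, 11.8 and 26.5 CPM with DMSO and 447, 87.2 and 117 CPM with alectinib (log2 fold change 2.12, SE 0.33, adjusted p = 0.0475), and Nrp1, a coreceptor for semaphorins and VEGF, at 51.1, 23.2 and 11.8 CPM with DMSO and 288, 102 and 128 CPM with alectinib (log2 fold change 2.67, SE 0.31, adjusted p = 0.0301). All alectinib libraries of Nrp1 lay above all DMSO libraries.

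Bmp2 and Bmp7 encode bone morphogenetic proteins and fell. Bmp2 was at 75.7, 3.94 and 9.70 CPM with DMSO and 14.8, 0.319 and 0.951 CPM with alectinib (log2 fold change -2.93, SE 0.37, adjusted p = 0.0311), and Bmp7 at 25.0, 66.2 and 103 CPM with DMSO and 0.917, 1.70 and 16.4 CPM with alectinib (log2 fold change -4.10, SE 0.61, adjusted p = 0.0477). Stc1, a secreted glycoprotein, was at 57.4, 97.5 and 53.5 CPM with DMSO and 3.50, 3.94 and 8.35 CPM with alectinib (log2 fold change -3.76, SE 0.45, adjusted p = 0.0311), without overlap between treatments. Igfbp3, which binds insulin-like growth factors, was at 972, 636 and 2399 CPM with DMSO and 103, 105 and 81.0 CPM with alectinib (log2 fold change -3.56, SE 0.54, adjusted p = 0.0469), and Ccdc80, a matrix protein, at 0.384, 0.419 and 0 CPM with DMSO and 19.5, 11.2 and 7.29 CPM with alectinib (log2 fold change 5.47, SE 0.68, adjusted p = 0.0311), although both stand in the same list of 22 YAP and TEAD targets tested, of which 2 rose and 2 fell. At an unadjusted p under 0.05, 10 were higher and 3 lower, and DESeq2 called 9 and 3, and the list median was 1.02.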
